A study of Mus musculus with 2 samples.

Results

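Growth factors and cytokines secreted by GR-1+ cells of 4T1 mammary tumors were followed through 10 genes, taken by symbol: Ereg, Areg, Hbegf, Inhba, Tgfb1, Tgfbi, Il6, Lif, Osm and Il10. All 10 were found among the 28692 genes listed for both libraries. 4T1 is a mouse breast carcinoma line from BALB/c mice. By its label, the 4T1p library came from tumors of the parental line. These tumors resist anti-PD1, an antibody that blocks the T cell checkpoint receptor PD-1. The 4T1m library, also by its label, came from tumors of a polyclonal population made from the same line with the mutagen MNNG. Tumors of that population respond to anti-PD1. All tumors grew in the mammary fat pad of female BALB/c mice that had received anti-PD1 for 2 weeks, so both groups share that treatment. GR-1+ cells, those bound by an antibody against Ly6G and Ly6C, were collected on magnetic beads and profiled by 10x 3′ single-cell RNA sequencing, with 1 library per tumor type and no count of animals behind either given in the sources used here.

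The filter kept barcodes that had 250 to 5000 detected genes, no more than 27000 unique molecular identifiers (UMIs) and at most 12.5% mitochondrial UMIs. This left 1128 of 1641 barcodes of 4T1p, with a median of 2015 UMIs, and 2092 of 2749 barcodes of 4T1m, with a median of 2739 UMIs. Before this filter the medians were 2066 UMIs for 4T1p and 2763 for 4T1m, whereas the study's methods assign these medians to the opposite tumors. The names used here follow the sample labels, and a swap of the libraries would turn the sign of every ratio below. Such a swap would also exchange which library came from resistant and which from responding tumors. Whether the libraries or only the stated medians were swapped was not tested. No barcode sequence was shared by the libraries. With 1 library per tumor type no test between tumors was possible. Intervals are 95% intervals that cover counting error only, and they take each UMI as independent, although UMIs of several genes lay bunched in few cells.

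Kept cells formed 14 clusters that were defined without the 10 genes or other genes of their pathways. Clusters 2, 5, 7, 8 and 10 were monocytic-like, with 586 cells of 4T1p and 681 of 4T1m. Clusters 3, 4, 6, 9, 11 and 12 were granulocytic-like, with 253 and 1019 cells. Cluster 13 (38 cells) was B cell-like, cluster 14 (27 cells) was T cell-like, and cluster 1 (616 cells, led by Fabp5 and Lgals1, median 877 UMIs) stayed unnamed. In cluster 1 the monocytic markers Apoe and C1qa were found in 89.0% and 78.9% of cells, S100a8 in 23.2% and Ly6g in 0%. It went unnamed because it was shallow in 4T1m and had no lineage marker among its leading genes, and it entered no lineage ratio. The Csf1r transcript, coding for the receptor of monocytes and macrophages, was found in 88.6% of cells of cluster 2, 95.2% of cluster 7 and 68.9% of cluster 10, but in 42.1% and 32.0% of the shallower clusters 5 and 8. S100a8, a granulocyte transcript, was found in 96.1% to 100% of cells of each granulocytic-like cluster, at 20760 CPM (counts normalized to 1e+06 UMIs of the group) or more, and also in 65.5% of cells of cluster 2, at 453 CPM, and in 19.6% of cells of cluster 8, at 18316 CPM. Cdh1, an epithelial gene, was found in 17.1% of cells of cluster 2, at 31.5 CPM, and in 0.357% of the shallower cluster 5, and Pecam1, an endothelial gene that myeloid cells also make, in 29.0% and 2.5%. The part of transcripts from other cells in the results below was not tested. Ly6g, one of the GR-1 antigens, was found in 97.8% of cells of cluster 12 and 22.6% of cluster 4, but in 1.2% or less of each monocytic-like cluster.

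Most monocytic-like cells of 4T1m lay in cluster 2 (343 cells), which was led by Thbs1, Sdc1, Met, Il7r and Dusp4 and had a median of 12044 UMIs, while 4T1p placed 112 cells there. The largest number of monocytic-like cells of 4T1p lay in cluster 5 (205 cells, against 75 of 4T1m), led by Cxcl9, Ppfia4, Tmem176b, AW112010 and Pla2g16, at a median of 1567.5 UMIs. Cluster 7, led by Ifit2, C6 and Cp, held 124 cells of each library. Cluster 8 was led by the proliferation genes Ube2c, Birc5 and Top2a. Cluster 10 (90 cells) was led by Cd163, Lyve1 and Cbr2, genes known from resident tissue macrophages. A ratio for all monocytic-like cells therefore joins a difference in cluster makeup with differences within clusters. Ratios within some of the clusters are given for each of the 10 genes.

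As background, epiregulin (Ereg), amphiregulin (Areg) and heparin-binding EGF-like growth factor (Hbegf) are made as membrane-bound precursors, released by metalloproteases, and bind receptors of the EGF receptor family on epithelial and tumor cells. Activin A, a dimer of the Inhba product, and TGF-β1 (Tgfb1) signal through paired serine-threonine kinase receptors to SMAD proteins, TGF-β1 after release from a latent complex. IL-6, leukemia inhibitory factor (LIF) and oncostatin M act through receptor complexes that contain gp130 and through STAT3, and IL-10 also acts through STAT3 but by its own receptor. Myeloid cells are known sources of all these factors in tumors.

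Promoter sequence was available for 6 of the 10 genes. The 150 bases before the start site are shown for the 4 of them whose level in monocytic-like cells was at least 2-fold higher in 4T1m (RefSeq starts, GRCm38.p6, plus strand; capitals mark the motif matches named afterwards).
Areg, chr5:91139449-91139598: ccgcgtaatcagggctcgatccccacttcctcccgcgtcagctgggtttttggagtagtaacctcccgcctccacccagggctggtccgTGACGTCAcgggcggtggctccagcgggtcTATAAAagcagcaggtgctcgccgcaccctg
Il6, chr5:30012964-30013113: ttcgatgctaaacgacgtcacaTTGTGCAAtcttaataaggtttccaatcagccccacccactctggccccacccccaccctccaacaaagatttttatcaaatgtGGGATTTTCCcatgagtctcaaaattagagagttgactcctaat
Inhba, chr13:16011701-16011850: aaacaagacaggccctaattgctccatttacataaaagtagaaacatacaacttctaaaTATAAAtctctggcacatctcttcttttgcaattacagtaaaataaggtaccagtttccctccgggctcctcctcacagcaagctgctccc
Lif, chr11:4257418-4257567: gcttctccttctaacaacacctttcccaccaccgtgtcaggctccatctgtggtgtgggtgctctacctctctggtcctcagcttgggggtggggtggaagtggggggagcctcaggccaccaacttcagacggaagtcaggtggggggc

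Both strands were searched for 5 motifs in these windows and in those of all 32851 RefSeq promoters. The Areg window held a cAMP response element (TGACGTCA, in 1.36% of all windows) beginning 61 bases before the start and a TATA box (TATAAA, in 7.57%) beginning 31 bases before it. The Il6 window held an NF-kappaB form (GGGA, any base, TTTCC, in 0.228%) at 44 bases and a C/EBP form (TTGNGNAA, in 6.79%) at 128 bases before the start. The Inhba window held a TATA box at 91 bases. None of the 5 motifs, which included the AP-1 form TGANTCA (in 4.24%), lay in the windows of Lif, Tgfb1 or Tgfbi. A match describes letters in these windows and does not locate a bound factor.

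Across the 10 genes, monocytic-like cells held most of the UMIs of each, from 66.1% for Ereg to 97.3% for Il10. They also held most UMIs of all genes, with 11299597 against 3927839 in granulocytic-like cells. Relative to these totals, only Ereg of the 10 was lower in monocytic-like cells (23.1 CPM) than in granulocytic-like cells (30.6 CPM). In monocytic-like cells the level in 4T1m was at least 2-fold that in 4T1p for Ereg, Areg, Inhba, Il6 and Lif. The counting interval lay above 0 for 9 genes and below 0 for Tgfbi. Among the 5579 genes with at least 200 UMIs in these cells, 6.36% had a log2 ratio of 1 or more and 1.38% a log2 ratio of -1 or less, against 5 and 0 of the 10. The same 5 genes were past the limit without cluster 8. The median log2 ratio was 0.99 over the 10 genes and 0.13 over all genes tested. The 10 genes were chosen with earlier results of these data known, so these values do not test them as a set. In granulocytic-like cells 5 of the 10 genes reached 200 UMIs. Of these, Areg was past the same limit upward, where 4.58% of 1967 genes were, and Inhba downward, where 2.59% were.

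**Figure D1:**
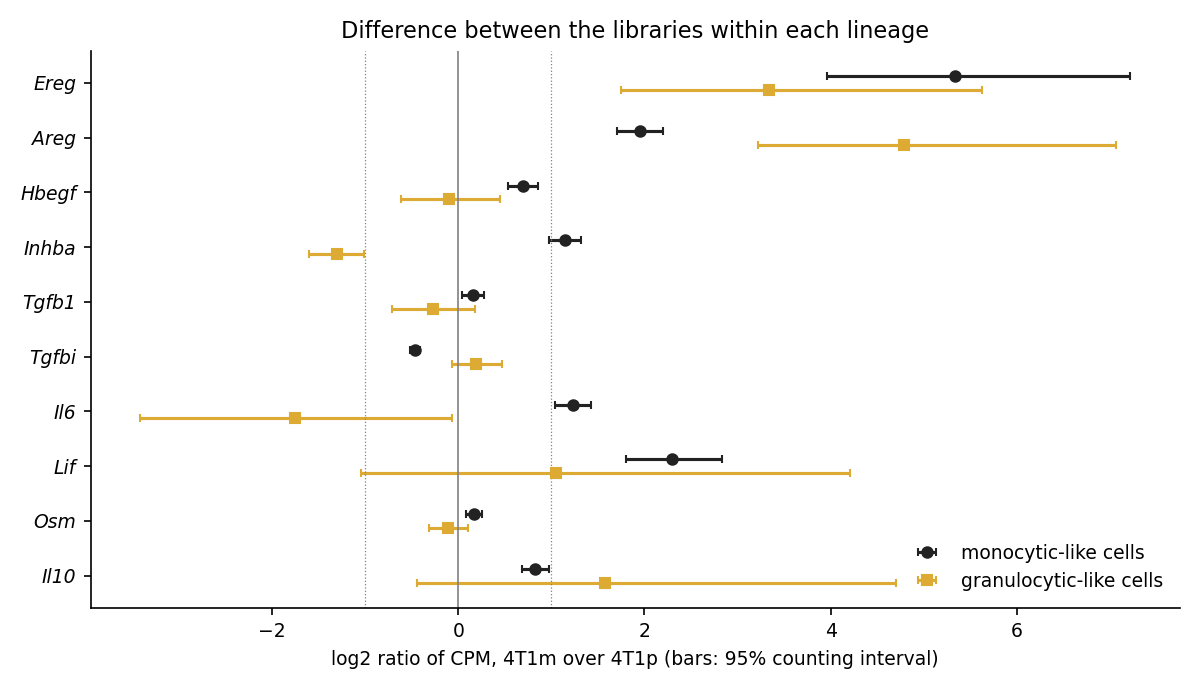
Log2 ratio of the summed level (CPM, 4T1m over 4T1p) of each gene in monocytic-like cells (black circles) and granulocytic-like cells (yellow squares), with 95% counting intervals and dotted lines at ratios of -1 and 1. Monocytic-like cells run from -0.46 for Tgfbi to 5.33 for Ereg. Hbegf, Inhba, Tgfb1, Tgfbi, Il6 and Osm lie on opposite sides of 0 in the 2 lineages. Only for Inhba and Il6 do both intervals leave out 0. Without the top cell of each library, the granulocytic-like ratio was -0.54 for Inhba and 0.63 for Il6.

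Among the EGF receptor ligands, Ereg had the largest ratio between the libraries in monocytic-like cells. Ereg lies on chromosome 5 (91074622-91093646, plus strand, GRCm38), 45953 bp before its neighbour Areg (91139599-91148432, plus strand). In monocytic-like cells 4 Ereg UMIs in 3 cells were counted in 4T1p (0.918 CPM, 0.25 to 2.35) and 257 UMIs in 27 cells in 4T1m (37.0 CPM, 32.6 to 41.8), a log2 ratio of 5.33 (3.96 to 7.22). Nearly all of these UMIs came from cluster 2, with 3 UMIs in 4T1p and 254 in 4T1m, and the log2 ratio within it was 4.88 (3.32 to 7.17). The pooled and the within-cluster intervals overlapped.

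The Ereg signal rested on few cells. In 4T1m 29 cells held 1 UMI, 16 held 2 to 4, 8 held 5 to 9 and 14 held 10 or more, with 47 in the highest, whereas no 4T1p cell held more than 2. With each cell counted for at most 3 UMIs the log2 ratio was 3.21. The limit of 27000 UMIs or 5000 genes had removed 57 barcodes of 4T1p and 59 of 4T1m, and these held 23 Ereg UMIs in 3 barcodes of 4T1p and 40 in 5 barcodes of 4T1m. With those of them that carried monocytic markers added, 53 and 47 barcodes, the log2 ratio of Ereg was 3.0. After thinning to 1000 UMIs, with shallower cells left out, Ereg was found in 0 of 464 monocytic-like cells of 4T1p (0 to 0.792%) and in 1.55% of 644 cells of 4T1m (0.754 to 2.84%).

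In granulocytic-like cells Ereg had 3 UMIs in 2 cells of 4T1p and 117 UMIs in 36 cells of 4T1m, a log2 ratio of 3.33 (1.75 to 5.63). By cluster the Ereg level was highest in cluster 6 (74.7 CPM, 55.6 to 98.2), above cluster 2 (43.8 CPM, 38.6 to 49.5). However, the 51 UMIs of cluster 6 came from 6 cells, and 1 cell of 4T1m held 30 of them, so this rank leaned on 1 cell. Clusters 2, 4 and 3 followed with overlapping intervals of neighbours. No Ereg UMI was found in the 280 cells of cluster 5.

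Areg was the more widespread of the neighbouring pair. In monocytic-like cells 163 Areg UMIs in 24 cells of 4T1p (37.4 CPM, 31.9 to 43.6) stood against 1003 UMIs in 109 cells of 4T1m (144 CPM, 136 to 154), a log2 ratio of 1.95 (1.71 to 2.20). The Areg ratio was 1.52 (1.22 to 1.83) in cluster 2, 1.51 (1.07 to 1.96) in cluster 7, and, from few UMIs, 3.03 (0.64 to 6.34) in cluster 5 and 2.80 (0.01 to 8.23) in cluster 10. Cells with an Areg UMI after thinning made up 1.08% (0.351 to 2.50%) in 4T1p and 4.81% (3.29 to 6.76%) in 4T1m. Adding the barcodes over the limits, which held 204 monocytic Areg UMIs in 4T1p and 181 in 4T1m, brought the log2 ratio to 1.23, and 117 of the 4T1p UMIs were in 1 barcode.

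In granulocytic-like cells the Areg ratio was larger but rested on few 4T1p UMIs. They held 3 UMIs in 2 cells of 4T1p (3.72 CPM, 0.767 to 10.9) and 320 UMIs in 53 cells of 4T1m (102.5 CPM, 91.6 to 114), a log2 ratio of 4.79 (3.22 to 7.07). Over all settings tried it ran from 2.74 (mean within clusters) to 6.20 (without the top cell of each library). The low averages clusters 3 and 9 alone, which held 2 and 1 Areg UMIs in 4T1p. Clusters 4 and 6 were left out for their count of 0 in 4T1p, and clusters 11 and 12 for under 20 cells of 4T1p. In cluster 4, led by Steap4, Rdh12, Klra17, Cxcr2 and Retnlg, no Areg UMI was counted in 55 cells of 4T1p and 200 in 26 of 316 cells of 4T1m (184 CPM). Pooled over libraries, cluster 4 (156 CPM, 135 to 180) and cluster 2 (157 CPM, 147 to 168) had indistinguishable Areg levels. T cell-like cells, a group known to make amphiregulin, held 7 Areg UMIs in 4 of 27 cells, all of 4T1m.

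Hbegf, the third of these ligands, had a smaller difference and its highest level in another cluster. In monocytic-like cells 451 UMIs in 120 cells of 4T1p (104 CPM, 94.2 to 114) stood against 1164 in 279 cells of 4T1m (168 CPM, 158 to 178), a log2 ratio of 0.70 (0.54 to 0.86). The Hbegf level was highest in the Cd163 and Lyve1 cluster 10 (367 CPM, 315 to 424), next in cluster 2 (192 CPM, 181 to 204) and then in cluster 9 (122 CPM, 90.8 to 159), and none of these intervals overlapped its neighbour. Within cluster 10 Hbegf stood at 403 CPM (318 to 503) in 4T1p and 344 CPM (281 to 416) in 4T1m, within counting error of each other. Cluster 2, which held many more UMIs, contributed 60.8% of all Hbegf UMIs, and the log2 ratio of Hbegf was 0.49 (0.28 to 0.71) within it and 0.26 (-0.08 to 0.61) within cluster 7. The unweighted mean of the log2 ratios within clusters was 0.010 for Hbegf. It left out cluster 5 (9 and 0 UMIs) and gave cluster 8, at -0.49 from 4 and 3 UMIs, the same weight as cluster 2. In granulocytic-like cells the Hbegf log2 ratio was -0.10 (-0.62 to 0.45). It was 1.29 (0.41 to 2.24) in cluster 9, from 16 and 36 UMIs, while the intervals of clusters 3, 4 and 6 held 0.

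**Figure D2:**
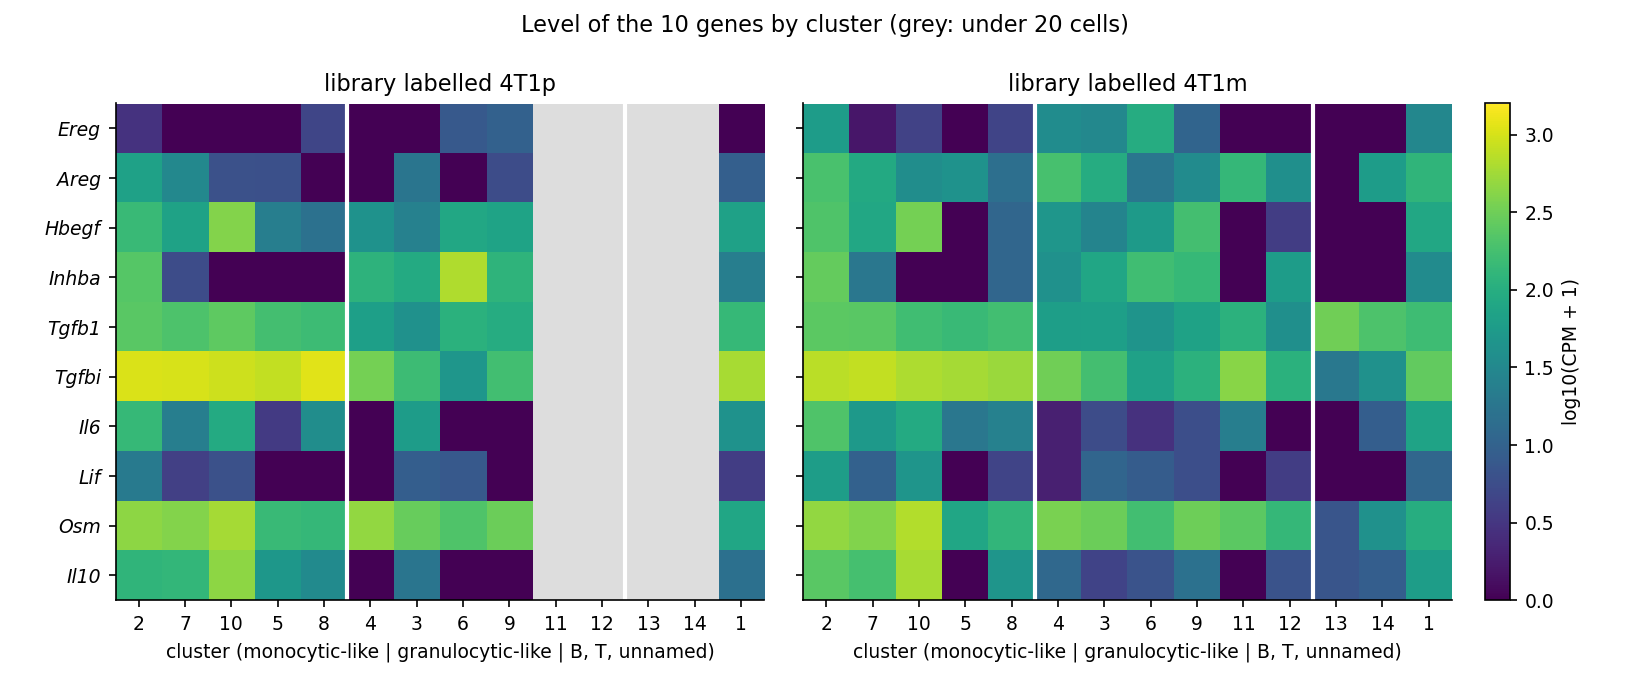
Level of each gene, as log10(CPM + 1), in each cluster of the libraries labelled 4T1p (left) and 4T1m (right). White lines part monocytic-like, granulocytic-like and other clusters, and grey marks clusters with under 20 cells of the library. Read along a row, Hbegf, Osm and Il10 are highest in cluster 10 and Il6 and Lif in cluster 2 of each library, and Ereg and Areg are low in the granulocytic-like clusters of 4T1p.

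Of the TGF-β family, Inhba differed in opposite directions in the lineages. Inhba (chromosome 13, 16011851-16031621) had 353 UMIs in 46 monocytic-like cells of 4T1p (81.0 CPM, 72.8 to 89.9) and 1242 UMIs in 145 cells of 4T1m (179 CPM, 169 to 189), a log2 ratio of 1.14 (0.97 to 1.32). Of all Inhba UMIs 76.4% were in cluster 2, which held a much larger share of the 4T1m cells, and within that cluster the log2 ratio was 0.29 (0.12 to 0.47). Outside cluster 2 Inhba was nearly missing from monocytic-like cells, with 41 UMIs in cluster 7, 3 in cluster 8 and none in clusters 5 and 10. The UMIs of cluster 7, 9 in 4T1p and 32 in 4T1m, gave a log2 ratio of 1.94 (0.84 to 3.19). After thinning, the share of monocytic-like cells with an Inhba UMI was 3.66% (2.15 to 5.80%) in 4T1p and 9.47% (7.32 to 12%) in 4T1m.

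In granulocytic-like cells Inhba had 160 UMIs in 37 of 253 cells of 4T1p (198 CPM, 169 to 232) and 250 in 116 of 1019 cells of 4T1m (80.1 CPM, 70.5 to 90.7), a log2 ratio of -1.31 (-1.60 to -1.01). A single 4T1p cell held 74 of the 160 UMIs, and without the top cell of each library the log2 ratio was -0.54. The share of granulocytic-like cells with an Inhba UMI after thinning did not separate the libraries, at 6.09% (3.37 to 10.0%) and 5.45% (4.08 to 7.10%). Cluster 6, led by Ciart, Ccdc126, Il15, Igf2r and Msh3, had the highest pooled level of Inhba (273 CPM, 235 to 315), which overlapped that of cluster 2 (264 CPM, 251 to 278). This rank leaned on the same single cell, whose 74 UMIs were among the 97 of cluster 6 in 4T1p. Cluster 6 stood at 657 CPM in 4T1p and 166 CPM in 4T1m, and cluster 2 at 227 and 277 CPM.

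Tgfb1 and Tgfbi were spread widely. Tgfb1 (chromosome 7, 25687002-25705077) had 210.2 CPM (197 to 224) in monocytic-like cells of 4T1p and 234 CPM (223 to 246) in 4T1m, giving a log2 ratio of 0.15 (0.04 to 0.27), and 0.04 (-0.13 to 0.22) within cluster 2. The Tgfb1 ratio was 0.25 (0.05 to 0.45) in cluster 7 and -0.60 (-1.20 to -0.001) in cluster 10. It was -0.24 (-0.96 to 0.44) in cluster 5 and 0.15 (-0.47 to 0.78) in cluster 8. The Tgfb1 level was highest in the lymphoid cells, with 308 CPM (231 to 403) in B cell-like and 274 CPM (201 to 366) in T cell-like cells, but these intervals overlapped each other and that of cluster 2 (243 CPM, 231 to 256). Granulocytic-like cells stood lower, at 69.4 CPM (52.4 to 90.1) in 4T1p and 57.3 CPM (49.3 to 66.4) in 4T1m.

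Tgfbi, an extracellular matrix protein gene that TGF-β induces, was lower in 4T1m in monocytic-like cells. In monocytic-like cells it stood at 1017 CPM (987 to 1048) in 4T1p and 737 CPM (717 to 757) in 4T1m, giving a log2 ratio of -0.46 (-0.52 to -0.41). The Tgfbi ratio was -0.52 (-0.61 to -0.43) in cluster 2, -0.34 (-0.44 to -0.24) in cluster 7, -0.47 (-0.81 to -0.14) in cluster 5, -1.11 (-1.39 to -0.82) in cluster 8 and -0.52 (-0.82 to -0.22) in cluster 10, so it pointed the same way in all 5 monocytic-like clusters. Among the monocytic-like clusters, cluster 7 had the highest Tgfbi level (920 CPM, 890 to 951), with an interval overlapping that of cluster 8 (825 CPM, 751 to 904). In granulocytic-like cells the log2 ratio of Tgfbi was 0.20 (-0.07 to 0.47).

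Within the IL-6 family, Il6 and Lif had cluster 2 as their main source. That cluster held the largest part of the UMIs of each of the 10 genes, 46.6% for Osm. It also held 5870359 UMIs of all genes, where kept cells held 5570882 in 4T1p and 10831715 in 4T1m. Il6 (chromosome 5, 30013114-30019981) had 279 UMIs in 67 monocytic-like cells of 4T1p (64.0 CPM, 56.7 to 72.0) and 1045 UMIs in 182 cells of 4T1m (151 CPM, 142 to 160), a log2 ratio of 1.23 (1.04 to 1.43). Cluster 2 held 80.7% of all Il6 UMIs (191 CPM, 180 to 202), and Il6 itself was among the 10 genes with the highest fold in that cluster. The Il6 ratio was 0.62 (0.40 to 0.85) within cluster 2 and 1.21 (0.68 to 1.76) within cluster 7, while cluster 10 stood at 88.9 CPM in 4T1p and 89.2 CPM in 4T1m. After thinning, 4.31% (2.65 to 6.58%) of monocytic-like cells of 4T1p and 9.01% (6.91 to 11.5%) of those of 4T1m had an Il6 UMI. In granulocytic-like cells Il6 was near the detection limit, with 7 UMIs in 2 cells of 4T1p and 8 UMIs in 7 cells of 4T1m. The ratio there (-1.76, -3.42 to -0.06) turned to 0.63 without the top cell of each library.

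Lif (chromosome 11, 4257557-4272514) lies 16531 bp from Osm (4236420-4241026) on the same chromosome, yet the libraries differed for Lif far more than for Osm. In monocytic-like cells 37 Lif UMIs in 26 cells of 4T1p (8.49 CPM, 5.98 to 11.7) stood against 290 in 101 cells of 4T1m (41.8 CPM, 37.1 to 46.9), a log2 ratio of 2.30 (1.80 to 2.83). Within cluster 2, which held 82.3% of all Lif UMIs, the log2 ratio was 1.59 (1.04 to 2.19). In cluster 7, 6 and 16 Lif UMIs gave 1.53 (0.10 to 3.17), in cluster 10 there were 1 and 14, and cluster 5 held none in either library. No 4T1p cell held more than 3 Lif UMIs, and the highest 4T1m cell held 14.

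Osm, coding for oncostatin M, was found in both lineages, with small ratios between the libraries. Its level in monocytic-like cells was 387 CPM (369 to 406) in 4T1p and 436 CPM (420 to 451) in 4T1m, giving a log2 ratio of 0.17 (0.08 to 0.26), with 0.05 (-0.08 to 0.17) in cluster 2 and -0.03 (-0.18 to 0.11) in cluster 7. It was -0.93 (-1.92 to -0.05) in cluster 5, from 58 and 13 UMIs. In granulocytic-like cells Osm stood at 301 CPM (265 to 342) and 279.7 CPM (261 to 299), giving a log2 ratio of -0.11 (-0.31 to 0.10), with -0.41 (-0.75 to -0.07) in cluster 4. By cluster Osm was highest in cluster 10 (640 CPM, 571 to 714), then in cluster 2 (469 CPM, 451 to 487) and cluster 7 (394 CPM, 374 to 415), which did not differ beyond counting error from the granulocytic-like cluster 4 (377 CPM, 345 to 413).

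Il10, coding for the anti-inflammatory cytokine IL-10, had cluster 10 before cluster 2, as Hbegf and Osm did. Cluster 10 had the highest Il10 level (547 CPM, 483 to 616), then cluster 2 (210.4 CPM, 199 to 222) and cluster 7 (152 CPM, 140.0 to 165), with no overlap between neighbours. In monocytic-like cells Il10 (chromosome 1, 131019845-131024974) stood at 127 CPM (117 to 138) in 4T1p and at 226 CPM (215 to 238) in 4T1m, giving a log2 ratio of 0.83 (0.69 to 0.97). Within clusters the log2 ratio of Il10 was 0.98 (0.76 to 1.22) in cluster 2, 0.46 (0.22 to 0.70) in cluster 7 and 0.41 (0.03 to 0.80) in cluster 10. Cluster 5 went the other way for Il10, with 19 UMIs in 7 of 205 cells of 4T1p and 0 in 75 cells of 4T1m. Granulocytic-like cells held 25 Il10 UMIs in all, 2 of them in 4T1p.

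**Figure D3:**
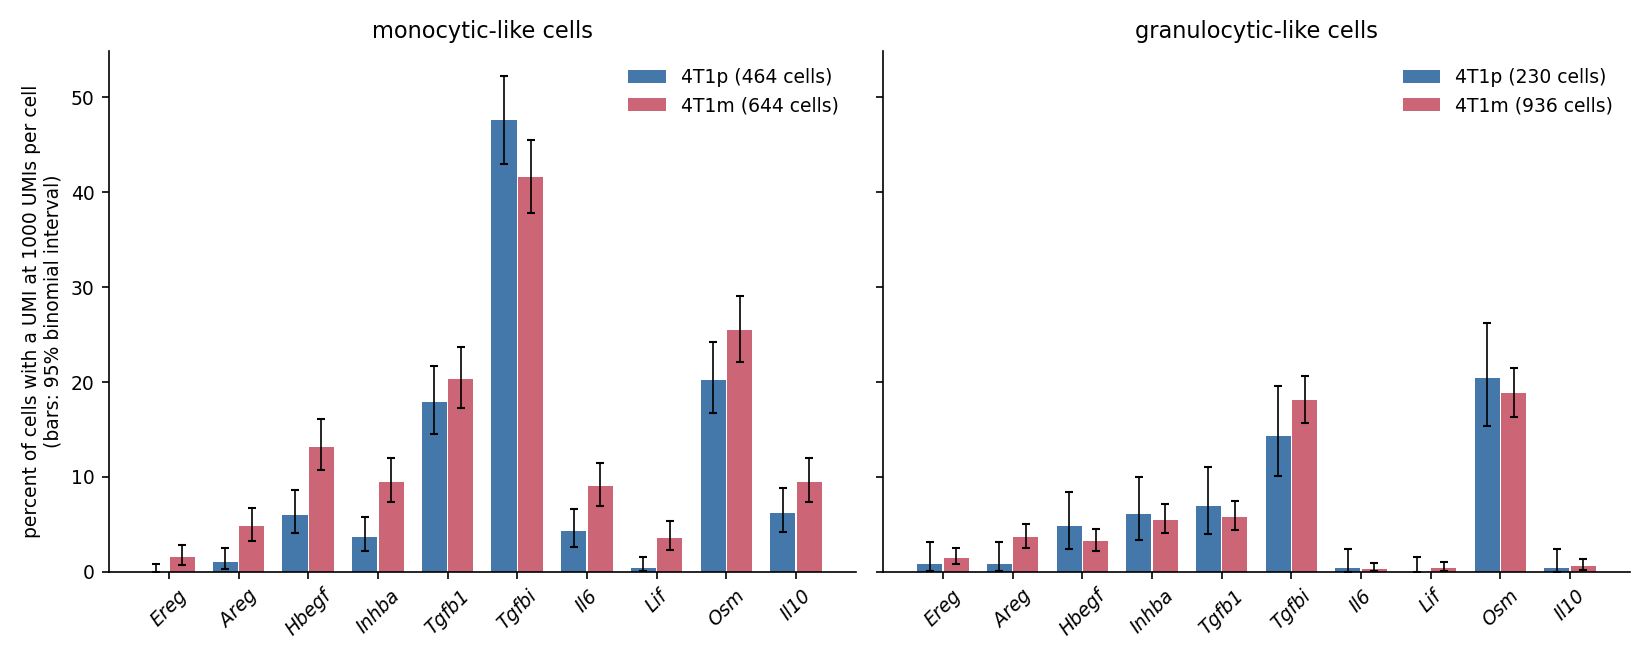
Percent of monocytic-like (left) and granulocytic-like cells (right) with at least 1 UMI of each gene after thinning to 1000 UMIs, for the libraries labelled 4T1p (blue) and 4T1m (red), with exact 95% binomial intervals. Cells under 1000 UMIs are left out. In monocytic-like cells the 4T1m bar is the higher for all genes but Tgfbi (47.6% in 4T1p, 41.6% in 4T1m).

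Because the monocytic-like cells of 4T1m were deeper (median 9765 UMIs, against 3003 in 4T1p), shares of cells were read after thinning. The thinned share was higher in 4T1m with intervals apart for Areg, Hbegf, Inhba, Il6 and Lif, the last at 0.431% (0.0522 to 1.55%) against 3.57% (2.28 to 5.31%). For Ereg, Tgfb1, Tgfbi, Osm and Il10 the intervals of the thinned shares overlapped. Detection was also read in the few lymphoid cells, where a missing UMI does not show that a gene is silent. In the B cell-like cells (median 3756.5 UMIs) no UMI of Ereg, Areg, Hbegf, Inhba, Il6 or Lif was found in 38 cells, and 3 counts, the limit set for a count of 0, would be a share of 7.89%. Tgfbi was found in 3 of them. Osm and Il10 were found in 1 B cell-like cell each, and in 2 and 1 T cell-like cells. Tgfb1, which lymphocytes are known to make, was found in 25 of the 38 B cell-like cells and in 13 of 27 T cell-like cells (median 5361 UMIs).

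The 10 genes parted clearly by how many cells carried them. Over all 3220 kept cells the 10 highest cells held 54.9% of the UMIs of Ereg, 32.1% of Areg, 31.0% of Il6, 27.4% of Lif, 23.1% of Inhba and 21.9% of Il10. The same share was 13.8% for Hbegf, 7.16% for Osm, 6.16% for Tgfbi and 4.87% for Tgfb1, with a median of 7.38% over the 6418 genes with at least 200 UMIs. Of those genes 99.6% were less concentrated than Ereg, 98.0% less than Il10 and 93.4% less than Hbegf, but 46.9% less than Osm and 18.2% less than Tgfb1. Counted from the highest cell down, 9 cells reached 50% of all Ereg UMIs, 21 cells for Areg, 27 for Il6 and 28 for Lif, against 168 for Osm and 224 for Tgfb1 and a median of 136 over all these genes. A single 4T1m cell held 100 of the 1389 Il6 UMIs. The shares differed by library. In 4T1p alone the 10 highest cells held 86.4% of Areg, 60.5% of Il6, 52.8% of Inhba and 52.5% of Lif UMIs, and in 4T1m alone 35.6%, 35.6%, 28.2% and 30.9%. However, 10 cells are a larger part of the 1128 kept cells of 4T1p than of the 2092 of 4T1m. The shares also stand at unlike counts. Lif had 40 UMIs in 29 cells of 4T1p, at most 3 in a cell, and 311 in 115 cells of 4T1m. Areg had 169 UMIs in 29 cells and 1389 in 179. What part of the differences follows from the counts was not tested. In the highest 1% of cells (11 and 21) the libraries lay closer. These cells held 88.2% and 54.5% of Areg, 62.5% and 50.9% of Il6, 55.3% and 45.9% of Inhba, and 55.0% and 48.6% of Lif UMIs.

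**Figure D4:**
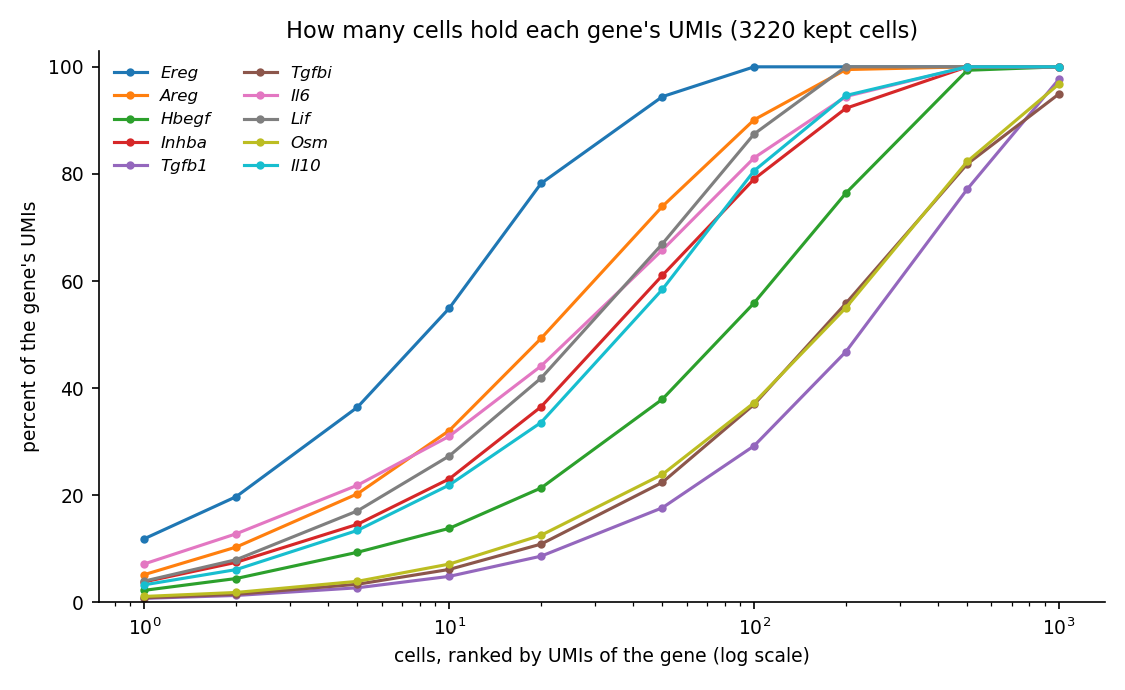
Percent of each gene's UMIs held by its highest cells, from 1 to 1000 cells (log scale), over 3220 kept cells of both libraries. The line of Ereg rises first (54.9% in 10 cells), followed by Areg, Il6 and Lif, and those of Tgfb1, Tgfbi and Osm rise last.

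Detection of 2 factors in the same cell was compared at equal depth. In thinned monocytic-like cells Ereg was found in 3 of 36 cells with an Areg UMI (8.33%, 1.75 to 22.5%) and in 7 of 1072 without one (0.653%, 0.263 to 1.34%). Within cluster 2 these shares were 11.5% (2.45 to 30.2%) and 1.64% (0.66 to 3.36%), and their intervals overlapped. In granulocytic-like cells 0 of 36 Areg carriers also had an Ereg UMI (0 to 9.74%), against 1.42% of the others. Il6 was found in 16.7% (9.18 to 26.8%) of monocytic-like cells with an Inhba UMI and 6.31% (4.90 to 7.97%) of those without, which narrowed to 17.1% (9.43 to 27.5%) and 12.2% (9.10 to 16.0%) within cluster 2. Osm was found in 40.7% (31.6 to 50.4%) of the cells with an Hbegf UMI and 21.3% (18.8 to 24.0%) of the others, and in 34.9% (24.8 to 46.2%) and 28.5% (23.9 to 33.3%) within cluster 2. Cells of a cluster share their library, so these shares are descriptions.

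Likeness of pattern was measured as Pearson correlation of log levels over the 24 combinations of cluster and library with at least 20 cells, for 6418 candidate genes. It is given as a description, since the combinations share libraries, depth and composition. The most alike genes were Ppp2r2d for Ereg (0.66), Acsl4 for Areg (0.69), Atp6v1e1 for Hbegf (0.86), Gm17056 for Inhba (0.87) and Irak1 for Tgfb1 (0.96). For the remaining genes they were Trf for Tgfbi (0.92), Ecm1 for Il6 (0.89), Slc22a4 for Lif (0.80), App for Osm (0.89) and Kcnk13 for Il10 (0.89). With Spearman correlation 8 of the 10 genes kept at most 1 of their 3 most alike genes, and of the genes named here only Irak1, Slc22a4 and Kcnk13 stayed among the 3. Ereg and Areg, though neighbours, correlated with each other at 0.31.

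These pathways were read from 10 lists of 123 genes in all, the 10 genes included. In monocytic-like cells 54 of the 123 reached 200 UMIs. Of these, 8 were at least 2-fold higher in 4T1m and 0 at least 2-fold lower, against 6.36% and 1.38% of all genes. All 10 genes already counted above were among the 54 and gave 5 of the 8, Ereg, Areg, Inhba, Il6 and Lif. The others of the 8 were Itgav, Thbs1 and Jak2, so the 8 of 54 is not a result apart from the 10 genes. The lists, too, were chosen with earlier results of these data known. Of the 11 EGF family ligands, 4 reached 200 UMIs in monocytic-like cells and Areg and Ereg were at least 2-fold higher in 4T1m. Of the 11 EGF receptors and shedding enzymes 6 reached it, none of them a receptor, and none passed the 2-fold limit. Egfr, Erbb2, Erbb3 and Erbb4 had 6, 4, 27 and 0 UMIs over all kept cells. Adam17, the main sheddase of these ligands, had a log2 ratio of 0.78 (0.62 to 0.96). Adam8 stood at 132 CPM in 4T1p and 252 CPM in 4T1m (0.93, 0.79 to 1.06), with 0.15 within cluster 2 and 1.28 within cluster 7, and the EGF receptor inhibitor Errfi1 had a log2 ratio of 0.91 (0.74 to 1.09).

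For the TGF-β family, Inhba was the 1 ligand of 3 measured that passed the limit in monocytic-like cells, and Gdf15 had a log2 ratio of -0.73 (-1.09 to -0.37). None of 4 measured receptors passed it, with Tgfbr1 at 0.52 (0.31 to 0.72) and Tgfbr2 at 0.48 (0.31 to 0.66). Of 9 measured genes for activation, inhibition and signal transfer, 2 passed it upward, where 6.36% of all genes in these cells did. Thbs1, coding for thrombospondin-1, which can release TGF-β from its latent form, stood at 40.6 CPM in 4T1p and 459 CPM in 4T1m (log2 ratio 3.50, 3.28 to 3.72) and was also the leading gene of cluster 2, with 3.16 (2.90 to 3.44) within cluster 2 and 0.14 (-0.45 to 0.73) within cluster 7. Itgav, the integrin chain that takes part in the same release, stood at 73.0 CPM and 203 CPM (1.48, 1.30 to 1.66), with 1.45 and 1.53 within these clusters. None of 7 measured TGF-β target genes passed the limit, and their median log2 ratio was -0.33, with Pmepa1 at -0.33 (-0.43 to -0.24) and Klf10 at -0.56 (-0.88 to -0.24).

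On the receiving side of the IL-6 family, none of 3 measured receptors passed the limit in monocytic-like cells, and Il6ra stood at 60.6 CPM in 4T1p and 77.9 CPM in 4T1m (0.36, 0.15 to 0.58). The IL-10 receptor chains had log2 ratios of -0.34 (-0.55 to -0.13) for Il10ra and -0.03 (-0.23 to 0.18) for Il10rb. Of 12 measured JAK-STAT3 genes only Jak2 passed the limit (1.19, 0.95 to 1.43), where 6.36% of all genes passed it upward. The median log2 ratio of the 12 was 0.09. Pim1, the gene of that list with the most UMIs, was at 0.10 (0.04 to 0.16), with 0.08 within cluster 2 and -0.33 within cluster 7. Socs3, the feedback inhibitor that STAT3 induces, stood at 608 CPM in 4T1p and 321 CPM in 4T1m in monocytic-like cells (-0.92, -1.0 to -0.84), with -0.63 (-0.76 to -0.51) within cluster 2 and -1.35 (-1.50 to -1.21) within cluster 7. In granulocytic-like cells Socs3 stood at 637 CPM and 313 CPM (-1.03, -1.18 to -0.87), 1 of 7 measured genes of that list past the limit there. In granulocytic-like cells 29 list genes reached 200 UMIs. Areg and Smad4 (1.02, 0.54 to 1.52) were past the limit upward, where 4.58% of all genes were, and Inhba and Socs3 downward, where 2.59% were, Inhba not without the top cell of each library (-0.54).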

How the data were processed

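Tumors treated with anti-PD1 yielded GR-1+ cells that were profiled with 10x 3′ v3 chemistry, 1 library per tumor type. The authors deposited filtered matrices of UMI counts per gene and barcode, made with Cell Ranger on mm10 (GRCm38). The matrix headers give software version 3.1.0, other than the version stated in the methods. Library totals were 9021132 (4T1p) and 14840190 UMIs (4T1m), of which kept cells held 5570882 and 10831715. The study's filters on Ptprc and doublets were alternatives. Cells were log-normalized, 2000 variable genes without the 10 genes, their pathway genes, mitochondrial genes, Gm42418 and AY036118 gave 11 components, and 20 neighbors gave Leiden clusters at resolution 0.8 (scanpy 1.11.5, Python 3.11.15), named from fixed markers. Levels were summed UMI counts scaled to 1e+06 UMIs of the group (CPM), with exact Poisson intervals (scipy 1.17.1). Shares had exact binomial intervals, after thinning to 1000 UMIs where stated, with shallower cells left out. Ratio intervals were derived from an exact binomial interval on the share of 4T1m in both counts. Their check on simulated data drew the UMIs of each gene independently, as the interval assumes, so it did not cover UMIs bunched in few cells. Genes with at least 200 UMIs in a lineage entered the counts of genes past a log2 ratio of 1. Named were the 10 genes, up to 3 genes per list with the most UMIs and 3 with the largest ratio, 3 most alike genes, markers, and 5 leading cluster genes. Places came from GENCODE M21. Members and lists were chosen with earlier results of these data known. Alternatives varied filters, clustering, lineage, scaling, capping and thinning. Columns not assigned to a sample numbered 0. Some list genes are not reported here.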

Additional observations from a re-analysis of the deposited data

Results flagged for a closer look

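The sign of the difference between libraries was opposite in the lineages for 2 genes, with counting intervals on either side of 0. Inhba had a log2 ratio (4T1m over 4T1p) of 1.14 in monocytic-like and -1.31 in granulocytic-like cells. In the 4T1p granulocytic-like cells 74 of the 160 Inhba UMIs were in 1 cell, and the ratio there was -0.54 without the top cell of each library. Il6 had a log2 ratio of 1.23 in monocytic-like and -1.76 in granulocytic-like cells, the latter from 7 and 8 UMIs. With 1 library per tumor type, the difference between the lineages was not tested for either gene.

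UMIs of all 10 genes were also present in the 116 barcodes over the limits on UMIs or genes, which entered the ratios only as a stated addition. They numbered 63 for Ereg, 447 for Areg, 480 for Hbegf, 166 for Inhba, 769 for Tgfb1, 3310 for Tgfbi, 290 for Il6, 38 for Lif, 1295 for Osm and 414 for Il10. Csf1r was found in 52 of the 57 such barcodes of 4T1p and in 49 of the 59 of 4T1m. Areg in these barcodes stood at 98.7 CPM (85.8 to 113) in 4T1p and 111 CPM (97.7 to 127) in 4T1m, and Il6 at 11.8 CPM (7.60 to 17.3) and 125 CPM (110.0 to 141). A barcode of this depth can hold more than 1 cell, which was not tested.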

How the results depend on the processing

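Over 269 recomputed log2 ratios, 5 changed sign after having a counting interval on 1 side of 0. Averaged within clusters, monocytic-like Tgfb1 was -0.081 and Osm -0.16, the latter with cluster 5 at -0.93 from 58 and 13 UMIs. These averages gave each cluster the same weight and left out clusters where a library had no UMI of the gene. The Ereg low of 2.41 below averages cluster 2 and cluster 8, which had 1 Ereg UMI in each library. The Inhba average of 1.12 gave cluster 2 (0.29) the same weight as cluster 7 (1.94, from 9 and 32 UMIs). Granulocytic-like Il6 was 0.63 with Ptprc-positive cells only, 0.63 without the top cell of each library and 0.36 with the barcodes over the limits. The last 2 settings, and leaving out cluster 8, were chosen after seeing the data. Of the 5 genes past a log2 ratio of 1 in monocytic-like cells, 3 remained with mitochondrial shares up to 5% (Il6 at 0.95, Ereg under 200 UMIs) and 3 with at most 3 UMIs per cell (Inhba at 0.84, Il6 at 0.87). Over all 14 settings, monocytic-like Ereg ran from 2.41 to 6.04, Areg from 1.23 to 2.56, Hbegf from 0.01 to 0.94, Inhba from 0.84 to 1.59, Il6 from 0.81 to 1.61, Lif from 1.76 to 2.42, Il10 from 0.48 to 1.30 and Tgfbi from -0.59 to -0.24. Granulocytic-like genes at -1 or less numbered 1, Inhba, but 0 with Ptprc-positive cells (-0.54), with at most 3 UMIs per cell (-0.39), within clusters (-0.89) and without the top cells (-0.54), and 2 with the barcodes over the limits (Hbegf at -1.05). Those at 1 or more numbered 1, or 2 with genes from 50 UMIs. TMM scaling shifted ratios by -0.06 in monocytic-like and 0.081 in granulocytic-like cells. Lif had a count of 0 in Ptprc-positive granulocytic-like cells and got no ratio. No paired analysis was possible because each tumor type has 1 library, and for the same reason no library could be left out.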
